A study of Mus musculus with 9 samples.

Results

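The neighbouring genes Tmem176a and Tmem176b, which encode a pair of related membrane proteins, were followed in a mouse lung tumour cell line and in subclones grown from single cells of that line. They are 2 of the 15768 genes of the deposited expression table, and both are among the 10519 genes that passed the filter on low values, an FPKM of at least 1 in at least 3 libraries. The pair was chosen by its measured values, the fall of both genes in the subclone SCC2 against the parent line in an earlier analysis of the same table. Its differences between the lines are therefore given as a description, with standard errors and no test.

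RNA sequencing was done on LLC1, a line derived from a Lewis lung carcinoma, and on SCC1 and SCC2, which were raised from LLC1 by limiting dilution. All 3 lines are labelled as untreated tumour cells of lung with a WT genotype, and all were grown in DMEM with fetal bovine serum. The subclones were passaged at least 5 and at most 8 times, and each is 1 clone, so a difference from LLC1 belongs to that clone. Each line had 3 libraries, which no label describes as separate cultures, so p-values below measure the spread between these libraries, which may be technical. The comparisons of SCC1 and of SCC2 with LLC1 share the LLC1 libraries.

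TMEM176A and TMEM176B span the membrane several times and are related to the MS4A family, to which CD20 belongs. They are found in endosomes and the Golgi, where they have been described as cation channels. They are best known in dendritic cells and macrophages, where TMEM176B has been linked to antigen presentation on MHC class II and to restraint of the NLRP3 inflammasome.

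Tmem176a and Tmem176b lie head to head on mouse chromosome 6. In the GENCODE M21 annotation of GRCm38, Tmem176a (ENSMUSG00000023367.14) runs on the plus strand from 48840919 to 48847071 with 7 transcripts, of which 5 code for protein. Tmem176b (ENSMUSG00000029810.15) runs on the minus strand from 48833818 to 48841496 with 12 transcripts, of which 11 code for protein. The longest coding sequences hold 244 codons for Tmem176a and 263 for Tmem176b. The gene bodies overlap, and 81 exonic bases belong to both, which is 2.1% of the exonic bases of Tmem176a and 3.4% of those of Tmem176b. No source used here says whether fragments were counted by strand, so those in the shared bases could fall to either gene.

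The stretch between the nearest facing RefSeq starts of the genes is shown because both transcripts begin at its ends. The Tmem176b start at 48841374 lies on one side and the Tmem176a start at 48841483 on the other, 108 bases apart, at chr6:48841375-48841482 of GRCm38. The bases are given 5′ to 3′ on the plus strand, and capitals mark the only match on either strand to the ETS core GGAAGT.

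Between the Tmem176b and Tmem176a starts: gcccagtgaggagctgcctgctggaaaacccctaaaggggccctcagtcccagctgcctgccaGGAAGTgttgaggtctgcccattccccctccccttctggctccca

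This stretch had a GC content of 63.9% and 0 CpG dinucleotides. It also overlaps the first exon of 1 GENCODE transcript of Tmem176b. The lowest GENCODE start of Tmem176a, at 48840919, lies on the Tmem176b side of the stretch. RefSeq gives 2 starts for Tmem176a and 3 for Tmem176b, each with a promoter window of 250 bases before and 50 after the start. The 5 windows had GC contents of 56.7% to 60.3% and 1 to 5 CpG dinucleotides, beside medians of 52.7% and 7 over the 32851 promoter windows of 27025 genes. GGAAGT was found on either strand in 2 of 2 Tmem176a windows and 1 of 3 Tmem176b windows, against 23.8% of all windows. The PU.1 core GAGGAA was likewise in 2 of 2 and 1 of 3, against 28.3%. No window of either gene held CCAAT (37.4% of all windows), the GC box GGGCGG (35.7%), TATAAA (13.6%), the AP-1 site TGANTCA (7.8%), the STAT site TTCNNNGAA (8.3%) or the NF-kB site GGGANTTCC (1.7%). The motifs were chosen after the promoter sequence was seen, so nothing is read from these counts beside the shares of all windows. The windows of the pair overlap each other, so the counts are not independent, and a match is a run of letters and not a bound site.

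Expression was measured in FPKM, the fragments of a gene scaled by its length and by the size of the library, so the levels of the 2 genes can be set side by side. Tmem176a stood at 66.4, 64.9 and 66.5 FPKM in the 3 LLC1 libraries. It stood at 52.9, 54.0 and 52.0 FPKM in SCC1, and at 5.78, 6.08 and 5.18 FPKM in SCC2. The 3 lines formed separate groups with no overlap, in the order LLC1, SCC1, SCC2. The mean levels were 65.9 ± 0.909, 53.0 ± 1.04 and 5.68 ± 0.458 FPKM (SD, n = 3 each). Tmem176a was 11.6-fold lower in SCC2 than in LLC1, and any SCC2 library held 7.79% to 9.37% of the level of any LLC1 library. In SCC1 it was 1.24-fold lower than in LLC1, with library pairs at 78.2% to 83.3%.

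Tmem176b stood at 104, 108 and 109 FPKM in LLC1, at 87.5, 90.0 and 92.8 FPKM in SCC1, and at 9.56, 8.96 and 8.83 FPKM in SCC2. Here too the libraries of the lines did not overlap, and the order of the lines was the same as for Tmem176a. The means were 107 ± 2.35, 90.1 ± 2.68 and 9.12 ± 0.388 FPKM (SD, n = 3 each). Tmem176b was 11.8-fold lower in SCC2 than in LLC1, with library pairs at 8.13% to 9.15%, and 1.19-fold lower in SCC1, with library pairs at 80.6% to 88.9%. In these bulk libraries, fewer cells that express the pair and less of its RNA in each cell cannot be told apart.

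**Figure D1:**
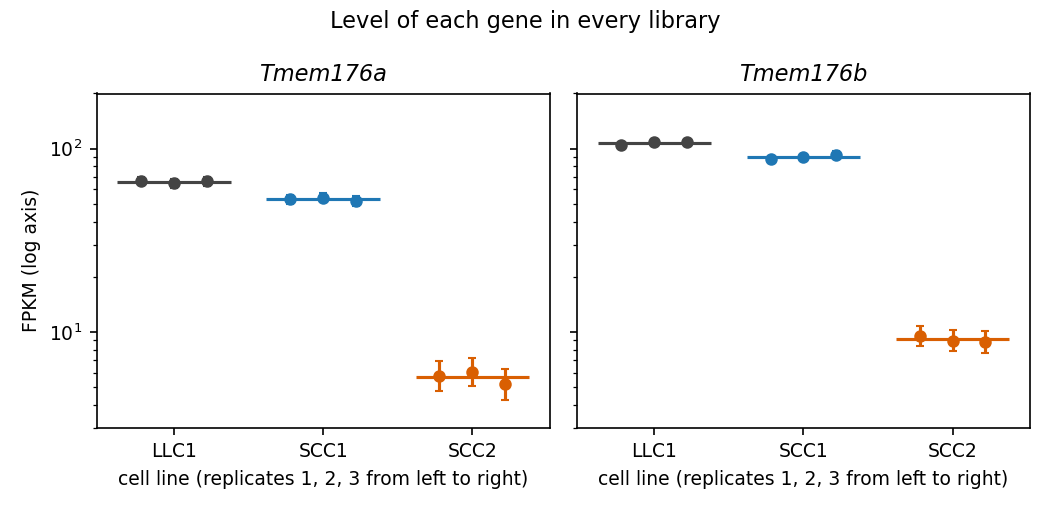
FPKM of Tmem176a and Tmem176b in each of the 9 libraries of LLC1, SCC1 and SCC2, on a log axis. Points are libraries, bars their exact Poisson 95% intervals and lines the means of 3 libraries; SCC2 libraries sit at 5.18 to 9.56 FPKM and all others at 52.0 FPKM or more.

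On the log2(FPKM + 1) scale, which understates the change of low levels, Tmem176a in SCC2 fell by 3.33 (SE 0.0418) against LLC1 and by 3.02 (SE 0.0418) against SCC1. Tmem176b fell by 3.42 (SE 0.0318) and by 3.17 (SE 0.0318). In SCC1 against LLC1 the changes were -0.31 for Tmem176a and -0.25 for Tmem176b. Among all genes tested, 1.35% reached -1 or lower in SCC2 against LLC1 and 1.84% in SCC2 against SCC1. Just 4 genes reached -3 in SCC2 against LLC1, namely the pair, Glipr2 and Grb10. The comparison of SCC2 with SCC1 had 6, the pair with Crmp1, Disp2, Grb10 and Rbp4. All 3 libraries lay below all 3 of the other line for both genes in each of the 3 comparisons. The same held for 31.8% of tested genes in SCC1 against LLC1, 34.2% in SCC2 against LLC1 and 39.9% in SCC2 against SCC1. The pair was selected on these contrasts, so nothing is read from its place among all genes.

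The RNA of the pair was still present in SCC2. Summed over the 3 SCC2 libraries, 351 fragments of Tmem176a and 707 of Tmem176b were worked back from the FPKM values, against 3982 and 8121 in LLC1. The exact Poisson 95% intervals of single SCC2 libraries ran from 4.25 to 7.23 FPKM for Tmem176a and from 7.72 to 10.8 FPKM for Tmem176b. These intervals cover counting error alone. By contrast, 3 fragments equal at most 0.157 FPKM of Tmem176a and 0.125 FPKM of Tmem176b, so the SCC2 levels were well above that limit. In LLC1, 94.0% of the genes in the table had a lower mean than Tmem176a and 96.8% a lower mean than Tmem176b. In SCC1 these shares were 91.9% and 95.8%, and in SCC2 they were 52.3% and 61.1%, near the middle of the table.

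The replicate spread of the pair was close to what counting gives. For Tmem176a the coefficient of variation was 1.38% in LLC1, 1.97% in SCC1 and 8.06% in SCC2, beside 2.75%, 3.0% and 9.25% from counting alone. For Tmem176b it was 2.19%, 2.97% and 4.26%, beside 1.92%, 2.05% and 6.51%. The wider relative spread in SCC2 thus went with fewer fragments.

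Tmem176b exceeded Tmem176a per length in all 9 libraries, and their ratio moved little while their levels moved by an order of magnitude. The ratio of Tmem176b to Tmem176a FPKM was 1.57, 1.67 and 1.63 in LLC1, then 1.65, 1.67 and 1.79 in SCC1, and 1.65, 1.47 and 1.70 in SCC2. The ranges of the 3 lines overlapped. The means were 1.63 ± 0.0497, 1.70 ± 0.0738 and 1.61 ± 0.121 (SD, n = 3 each), and counting alone gives SDs of 0.0545, 0.0619 and 0.183. Added together, the genes reached 173 ± 2.12 FPKM in LLC1, 143 ± 2.35 in SCC1 and 14.8 ± 0.696 in SCC2.

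**Figure D2:**
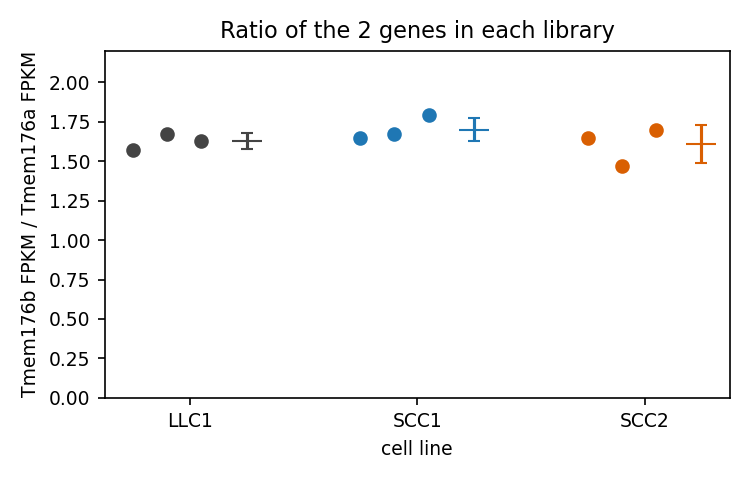
Ratio of Tmem176b FPKM to Tmem176a FPKM in each library of LLC1, SCC1 and SCC2; points are libraries and bars the mean ± SD of 3. All 9 ratios lie between 1.47 and 1.79, and the ranges of the lines overlap.

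Across the 20 genes of the table that flank the pair on chromosome 6, 10 on each side, no tested gene other than the pair reached a log2 change below -0.92 in SCC2 against LLC1. Of these neighbours 13 were tested, and the other 7 stayed under 1 FPKM in every library. On log2(FPKM + 1), the tested neighbours other than Repin1, Gpnmb, Tra2a and Mpp6 could not have fallen as far as the pair. Those others had LLC1 means of 1.91 to 8.4 FPKM. Repin1, Gpnmb, Tra2a and Mpp6 changed by -0.27, 1.35, -0.12 and 0.1 in SCC2 against LLC1. In SCC2 against LLC1, 2 neighbours rose and 7 fell at an adjusted p of 0.05 (limma on log2(FPKM + 1), Benjamini-Hochberg over all genes tested), with a median log2 change of -0.12. Of all tested genes, 67.6% were called in that comparison, with a median of 0.0075. In SCC1 against LLC1, 9 neighbours rose and 2 fell, with a median of 0.26, where 70.1% of all tested genes were called with a median of 0.033. In SCC2 against SCC1, 2 rose and 10 fell, with a median of -0.35, where 76.3% of all tested genes were called with a median of -0.0029. The 511 tested genes of chromosome 6 other than the pair, which include the 13 neighbours, leaned the same way. Their medians were 0.13 in SCC1 and -0.097 in SCC2 against LLC1 and -0.23 between the subclones. With the chromosome median removed, 7 neighbours rose and 2 fell in SCC1 against LLC1, where 6358 of the 10519 genes tested were called. In SCC2 against LLC1, 2 rose and 5 fell, where 6147 genes were called. In SCC2 against SCC1, 2 rose and 6 fell, where 7087 genes were called.

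The closest genes on both sides were nearly silent. Gimap5, of a family of small GTPases in lymphocytes, lies 79.6 kb away and had a mean of 0.0186 FPKM in LLC1 and 0 in both subclones. Aoc1, which encodes diamine oxidase, lies 49.3 kb away on the other side with means of 0.0127 FPKM in LLC1, 0.0191 in SCC1 and 0 in SCC2. Gimap6 and Gimap4 also stayed below the filter. Tmem176a and Tmem176b were thus the sole tested genes between Gimap9, 154.7 kb away, and Gpnmb, 190.6 kb away.

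Gpnmb, which encodes a membrane glycoprotein of lysosomes and melanosomes, went the other way from the pair. Its level was 58.3 ± 3.31 FPKM in LLC1, 103 ± 2.54 in SCC1 and 150 ± 6.17 in SCC2 (SD, n = 3 each), a log2 rise of 0.81 in SCC1 and 1.35 in SCC2 against LLC1 (limma adjusted p 7.08e-09 and 1.76e-10). It rose in both subclones while the pair was lower in both. Gimap9 was at 2.21 ± 0.159, 3.04 ± 0.179 and 1.80 ± 0.322 FPKM, a log2 change of 0.33 in SCC1 and -0.20 in SCC2 (limma adjusted p 0.002 and 0.0343). The SCC2 call of Gimap9 was lost without SCC2 replicate 1 (limma adjusted p 0.142), SCC2 replicate 3 (0.106), LLC1 replicate 1 (0.1) or LLC1 replicate 3 (0.0888). It was also lost with no filter (limma adjusted p 0.0653), quantile normalization (0.247), the chromosome median removed (0.273), limma-voom (0.111) and a fit of the 2 lines alone (0.0505). Zfp775, a zinc finger gene, was at 4.85 ± 0.398, 6.04 ± 0.225 and 3.79 ± 0.19 FPKM, with log2 changes of 0.27 and -0.29 (limma adjusted p 0.00086 and 0.000563).

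On the Gpnmb side, Malsu1, needed to assemble the mitochondrial ribosome, changed by -0.22 in SCC2 against LLC1 (limma adjusted p 0.00107) and by 0.06 in SCC1 (0.259). Igf2bp3, an RNA-binding protein gene, changed by -0.21 in SCC1 (limma adjusted p 0.00136) and by -0.03 in SCC2 (0.634). Tra2a, a splicing factor gene, rose by 0.24 in SCC1 and fell by 0.12 in SCC2 (limma adjusted p 3.05e-06 and 0.00062), and the SCC2 call was lost with the chromosome median removed (-0.02, limma adjusted p 0.396). The lowest change of any tested neighbour in SCC2 against LLC1 was -0.92, for Atp6v0e2, a gene for a subunit of the vacuolar proton pump 292.0 kb away. Atp6v0e2 averaged 0.916 FPKM in SCC2 and passed the filter through the other lines. Beside it, the changes of the pair were -3.33 and -3.42. From its LLC1 mean of 2.6 FPKM, Atp6v0e2 could not have fallen that far on this scale even if silent.

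**Figure D3:**
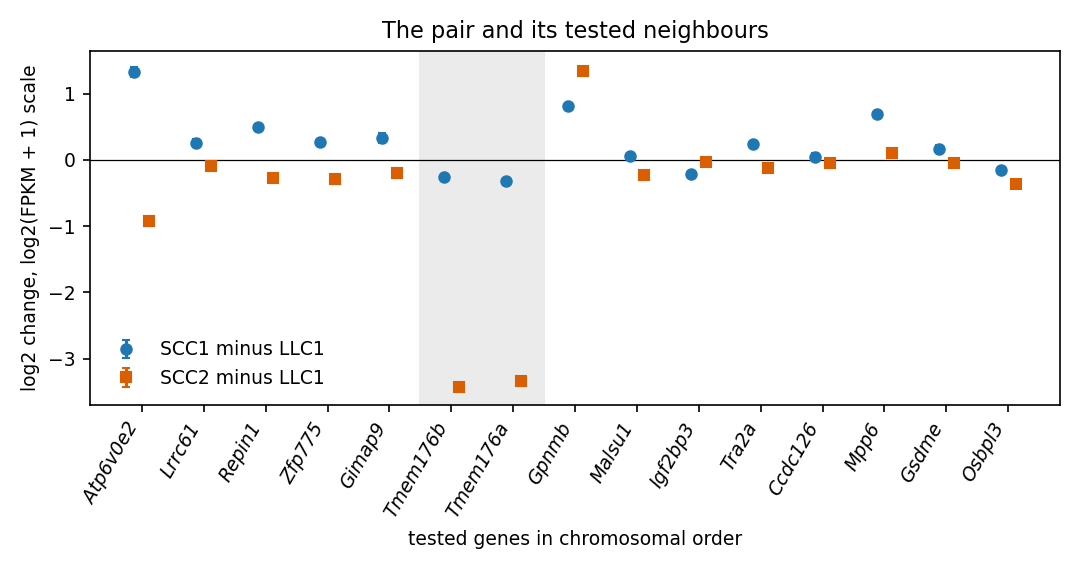
Log2 change with its SE, on the log2(FPKM + 1) scale, of Tmem176a, Tmem176b and their tested neighbours in chromosomal order; circles are SCC1 minus LLC1 and squares SCC2 minus LLC1. The pair, in the shaded area, lies at -3.33 and -3.42 in SCC2, and the lowest neighbour at -0.92. Neighbours with low LLC1 levels cannot fall as far as the pair on this scale.

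Pairs of genes with facing starts are common in the genome, so the pair was set beside others of its kind. The annotation held 1121 adjacent protein-coding pairs on opposite strands with starts within 1000 bases of each other, of which 755 had both genes tested. In SCC2 against LLC1, Tmem176b and Tmem176a were the 1 pair of these in which both genes had a log2 change of -1 or lower, and 0 pairs had both at 1 or higher. In 3 other pairs 1 of the genes passed 2-fold. These were Ggt7 and Acss2 (-1.83 and -0.90), Best1 and Rab3il1 (-1.02 and -0.85) and Rpl3 and Syngr1 (-0.29 and -1.27). The genes of the Tmem176 pair differed in their change by 0.09, and the median difference over the 755 pairs was 0.13. Since the pair was selected on this contrast, its place among the 755 is a description.

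**Figure D4:**
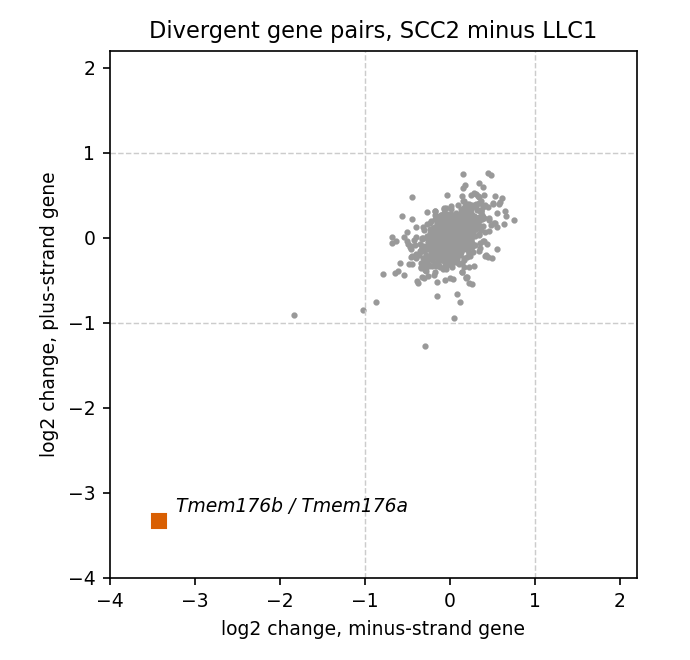
Log2 change in SCC2 minus LLC1 of the genes of 755 divergent pairs, minus-strand gene on the x axis and plus-strand gene on the y axis; dashed lines mark a change of 1 in either direction. Tmem176b and Tmem176a, at -3.42 and -3.33, are the 1 pair with both genes past -1.

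In SCC2 against SCC1 the Tmem176 pair was again the 1 pair with both genes at -1 or lower. In SCC1 against LLC1, 0 pairs had both genes at -1 or lower and 0 had both at 1 or higher, and the change of Tmem176b differed from that of Tmem176a by 0.06.

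No tested gene had a profile over the 9 libraries nearer to that of Tmem176a than Tmem176b, and the reverse also held. Likeness was the Euclidean distance between log2(FPKM + 1) values centred on the LLC1 mean, and the members of the pair were 0.257 apart. The next gene was at 1.80 from Tmem176a (Tmem98) and at 1.79 from Tmem176b (Grb10). Measured from the mean of the pair, the 8 nearest genes were Tmem98, Grb10, Rgs16, Ace, Rcn3, Disp2, Nes and Rundc3a, at distances of 1.85 to 2.75. Their Pearson correlations with the pair over the 9 libraries were 0.838 to 0.997, which is a description over 3 lines whose replicates share a clone. None of the 8 lies on chromosome 6. The pair was selected on the fall of both genes in SCC2, which also enters these distances, so their nearness is a description.

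Tmem98, a gene for a membrane protein, had means of 4.6 FPKM in LLC1, 5.13 in SCC1 and 0.0623 in SCC2. Grb10, an adaptor of insulin receptor signalling, had means of 25.0, 24.4 and 0.214 FPKM. In SCC2, Tmem98 held 5 fragments over the 3 libraries and Grb10 held 62, fewer than the 351 of Tmem176a and 707 of Tmem176b. Rgs16, a regulator of G protein signalling, had means of 6.24, 3.13 and 0.518 FPKM, and Rcn3, a calcium-binding protein of the secretory pathway, 4.20, 2.17 and 0.232 FPKM. Ace, the angiotensin-converting enzyme, had 4.76, 6.79 and 0.241 FPKM, and Disp2 had 9.74, 18.3 and 0.895 FPKM. Nes, the intermediate filament nestin, had 18.5, 6.16 and 2.78 FPKM, and Rundc3a had 9.17, 15.0 and 1.39 FPKM. All 8 were lowest in SCC2, as the pair was, which the choice by nearness to the pair favours. In SCC1 they lay on both sides of LLC1. Both Tmem176a, at 5.68 FPKM, and Tmem176b, at 9.12 FPKM, were above the SCC2 mean of each of them.

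**Figure D5:**
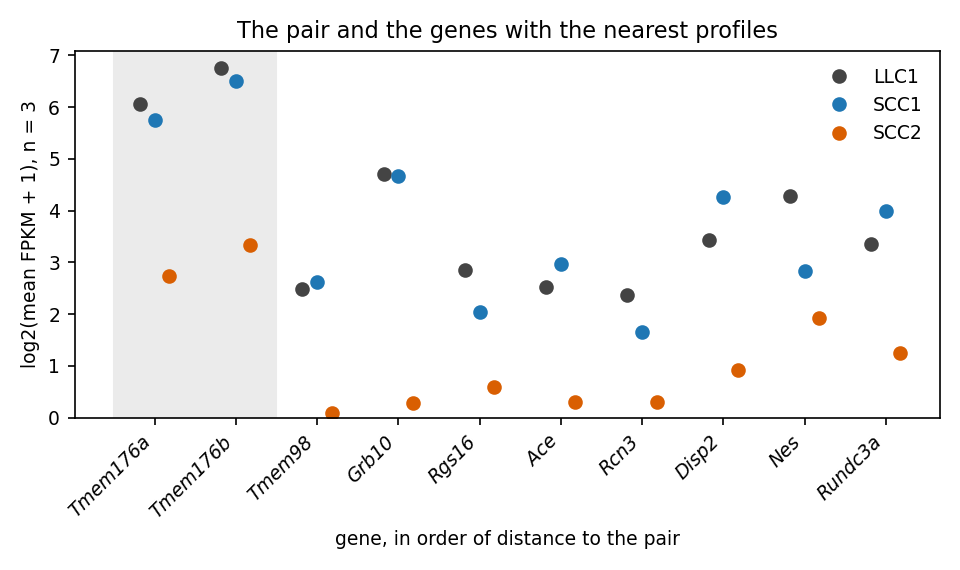
Log2(mean FPKM + 1) in LLC1, SCC1 and SCC2 for Tmem176a, Tmem176b and the 8 genes nearest to them in profile. All 10 genes are lowest in SCC2, where Tmem176a and Tmem176b keep 5.68 and 9.12 FPKM. The 8 were chosen by nearness to the pair, whose profile is lowest in SCC2.

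The genes among which the pair is known were followed in lists. Of 19 MS4A family genes, the relatives of the pair, 2 were in the table and 0 were tested, and their summed level was at most 0.105 FPKM in any library. Of 22 inflammasome genes 8 were tested. In SCC2 against LLC1, 3 of them rose and 4 fell (limma, Benjamini-Hochberg over all genes tested), with a median log2 change of -0.094, beside 3655 higher and 3457 lower, 67.6% in all, of the 10519 genes tested. In SCC1 against LLC1, 0 of the 8 rose and 5 fell, with a median of -0.18. That is 62.5% called, below the 70.1% of all tested genes. Gsdmd, which encodes the pore-forming gasdermin D, fell from 8.62 ± 0.395 FPKM in LLC1 to 5.07 ± 0.275 in SCC1 and 3.73 ± 0.122 in SCC2 (log2 change -1.02 in SCC2, limma adjusted p 4.65e-09). Il1r1, the receptor of interleukin 1, fell to 42.2 ± 0.306 FPKM in SCC2 from 55.6 ± 0.769 (limma adjusted p 2.92e-08). Txnip fell by 0.29 and Casp8 rose by 0.29 in SCC2 against LLC1 (limma adjusted p 1.19e-07 and 4.57e-05). Of the genes for the NLRP3 inflammasome itself, Nlrp3 had means of 0.0812, 0.17 and 0.031 FPKM in LLC1, SCC1 and SCC2, and Pycard was at 0 in LLC1 and SCC2 and at 0.00842 FPKM in SCC1. Casp1, its effector protease, had means of 0.0497 FPKM in LLC1, 0.594 in SCC1 and 0.886 in SCC2 and was not tested, with the libraries of both subclones above those of LLC1.

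Of 23 genes of the MHC class II pathway 8 were tested, and 3 rose and 2 fell in SCC2 against LLC1, with a median of -0.0054. The 62.5% called is near the 67.6% of all tested genes. Rfx5, a factor that binds class II promoters, was at 4.08 ± 0.0676 FPKM in LLC1 and 2.61 ± 0.13 in SCC2 (log2 change -0.50, limma adjusted p 1.62e-06). Marchf1, a ubiquitin ligase that acts on class II molecules, had 0.681 ± 0.0236 FPKM in LLC1 and 1.53 ± 0.139 in SCC2. It is counted among the 3 but passed the filter through SCC2 alone, so its change is given without a test. Lgmn fell by 0.35 and Ctsl rose by 0.15, both genes of lysosomal proteases (limma adjusted p 3.06e-06 and 1.67e-05). Ciita, the master regulator of the pathway, had means of at most 0.0706 FPKM, and Cd74, the invariant chain, at most 0.0771 FPKM.

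The list of calcium-linked cation channels had 16 of 25 genes tested, with 8 higher and 6 lower in SCC2 against LLC1, 87.5% called beside 67.6% of all tested genes, and a median of 0.088. Kcnn4, a calcium-activated potassium channel gene, rose from 17.1 ± 0.726 to 25.3 ± 0.425 FPKM (limma adjusted p 4.66e-08). Tpcn1, an endolysosomal channel gene, fell from 47.1 ± 0.718 to 38.9 ± 0.709 FPKM (limma adjusted p 4.32e-06). All 27 genes of endosome and Golgi trafficking, the compartments of the pair, were tested, and 15 rose and 6 fell in SCC2 against LLC1, 77.8% called beside 67.6% of all tested genes, with a median of 0.14 beside 0.0075. Lamp1, a lysosomal membrane protein gene, rose from 235 ± 2.31 to 324 ± 4.53 FPKM and Lamp2 from 40.6 ± 1.38 to 51.6 ± 0.464 FPKM (limma adjusted p 6.59e-10 and 2.8e-07). Snx2, a retromer-associated sorting nexin gene, fell by 0.38, and Golgb1, a gene for a Golgi tether, rose by 0.39 (limma adjusted p 4.36e-08 and 5.06e-07). The lowest change of any tested gene in these lists in SCC2 against LLC1 was -1.02, for Gsdmd, beside -3.33 and -3.42 for the pair. Genes below the filter are left out of this, such as the inflammasome gene P2rx7. It had means of 0.772 FPKM in LLC1, 0.677 in SCC1 and 0.149 in SCC2.

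Markers of other cell types were summed in each library to set beside the levels of the pair. Of 14 macrophage and monocyte markers 8 were in the table, and their summed level was 15.9 to 17.3 FPKM in LLC1, 28.1 to 32.1 in SCC1 and 18.8 to 19.3 in SCC2. This sum was highest in SCC1. Within it Cd14 and Cd68 made up most of the level. Ptprc, Adgre1, Itgam, C1qa and C1qb were not listed in the table, which holds genes above 0 in at least 1 library. Of 10 dendritic cell markers 7 were in the table, with sums of 3.01 to 3.83, 2.73 to 3.27 and 2.73 to 3.39 FPKM, ranges that overlap between the lines, and Itgax made up most of it. Itgax itself fell from 2.21 ± 0.15 FPKM in LLC1 to 1.72 ± 0.153 in SCC1 and 1.88 ± 0.0566 in SCC2 (limma adjusted p 0.0021 and 0.0273). Sums of lymphocyte markers (2 of 9 in the table) stayed at or below 0.318 FPKM in any library, and those of endothelial markers (4 of 6) at or below 0.096 FPKM. Fibroblast markers (4 of 6) summed to 571 to 597 FPKM in LLC1, 258 to 268 in SCC1 and 692 to 714 in SCC2, nearly all from Col3a1 (means of 575, 257 and 699 FPKM). Pdgfra and Dcn were lower in SCC2 than in LLC1, at 3.04 against 5.18 and 2.1 against 3.02 FPKM. Lum went the other way, with means of 0.725 FPKM in LLC1, 0.0865 in SCC1 and 0.994 in SCC2, and was not tested. Pdpn and Thy1 were not listed. Lung epithelial markers (4 of 8) summed to 9.6 to 12.7 FPKM over all libraries, almost all from Foxa2, with Epcam not listed. The part of any of these cell types in the levels of the pair was not tested.

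The 9 libraries were alike in size, with 17094808 to 19398657 fragments, FPKM totals of 381902 to 391805 and median FPKM of 4.81 to 4.96.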

How the data were processed

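RNA sequencing of 3 libraries each of LLC1, SCC1 and SCC2 was analysed from the deposited FPKM table, with groups from the sample titles. Per the series' design text, the authors trimmed reads with Trimmomatic, aligned them with hisat2 and computed FPKM with cufflinks. Tool versions and strand settings: not given in the sources used here. The submitters' processing notes name GRCm38 and mm10. The sources name different library kits, a SMARTER kit and a stranded TruSeq kit.

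The 10519 genes that reached an FPKM of 1 in 3 or more of the 9 libraries were fitted on log2(FPKM + 1) with limma 3.58.1 in R 4.3.3 (eBayes, trend and robust), with line as the sole factor and two-sided tests, adjusted by Benjamini-Hochberg over all 10519 genes, at a threshold of 0.05. The deposited FPKM values hold no total RNA per cell, so a change is measured against the rest of the library. For all 12270 genes above 0 in every library, fragments worked back from FPKM came out whole within 0.001; they are the smallest whole numbers, up to a factor common to a gene. Intervals are exact Poisson at 95%. The fit was also run on simulated data with far fewer changed genes than were called here, and nothing is read from that run.

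Promoters and positions are from RefSeq (GRCm38.p6; 15665 of 15768 symbols matched) and gene models from GENCODE M21. The motifs were chosen after the promoter sequence was seen. The pair, the 12 lists (6 pathway, 6 marker; 133 of 190 entries in the table) and the tests were chosen with earlier results of these data known. Named genes are the pair, the tested genes among the nearest 5 on each side, up to 4 members per list with the smallest adjusted p in SCC2 against LLC1, and the 8 genes nearest in profile; others were named after their values were seen. Alternatives were another pseudocount, filters, quantile normalization, the chromosome median removed, limma-voom on fragments, fits of 2 lines, a replicate block and each library left out. Other steps used scipy 1.17.1, pandas 2.3.3, numpy 2.4.6 and matplotlib 3.10.9 under Python 3.11.15. Protein sequences were not used here. Of the lists and motifs, 1 each and some single genes are not reported here.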

Additional observations from a re-analysis of the deposited data

Results flagged for a closer look

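Among the neighbours of Tmem176a and Tmem176b, 5 genes were called higher in SCC1 and lower in SCC2 against LLC1, and in 4 of them every SCC1 library was above and every SCC2 library below every LLC1 library. The fifth, Gimap9, had overlapping SCC2 and LLC1 libraries. A limma call between SCC2 and SCC1 was also a condition for picking these 4, so their calls there are no further result. Atp6v0e2 was at 2.60 ± 0.0757, 8.04 ± 0.252 and 0.916 ± 0.245 FPKM in LLC1, SCC1 and SCC2 (SD, n = 3 each), and SCC2 minus SCC1 was -2.25 on the log2 scale (limma adjusted p 1.83e-10). Repin1, a zinc finger gene, changed by 0.50 in SCC1 and by -0.27 in SCC2 against LLC1 (limma adjusted p 8.29e-07 and 0.000128), with a difference of -0.77 (limma adjusted p 1.07e-08). The difference was -0.55 for Zfp775 (limma adjusted p 1.65e-06) and -0.36 for Tra2a (limma adjusted p 4.86e-08). The fall of Tra2a in SCC2 against LLC1 lost its call with the chromosome median removed (-0.02, limma adjusted p 0.396). The share of all tested genes called higher in SCC1 and lower in SCC2 was not computed, so nothing is read from the counts of 5 and 4 neighbours. Against LLC1, 4127 of the 10519 genes tested were called higher in SCC1 and 3457 lower in SCC2. Of the 511 tested genes of chromosome 6 other than the pair, which include these neighbours, 285 were called higher in SCC1 and 248 lower in SCC2. The chromosome thus leaned the same way as these neighbours. The pair itself was lower than LLC1 in both subclones.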

How the results depend on the processing

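Under the 16 alternatives of each comparison no direction reversed for Tmem176a or Tmem176b. Their changes moved by more than the replicate SD in these cases. With a pseudocount of 0.1 they were -3.52 and -3.54 in SCC2 against LLC1 and -3.20 and -3.29 against SCC1. With limma-voom on recovered fragments they were -3.53 and -3.55, and -3.22 and -3.30. With quantile normalization they were -0.35 and -0.29 in SCC1 against LLC1. With the chromosome median removed they were -0.44 and -0.38 in SCC1 and -3.23 and -3.32 in SCC2 against LLC1, and -2.79 and -2.94 in SCC2 against SCC1. With a filter of 5 FPKM, 7 neighbours were called in SCC1 against LLC1 (11 before) and 7 in SCC2 against SCC1 (12 before). Fewer were tested, 7 where 13 had been. Gsdme, a neighbour called in SCC1 against LLC1 (limma adjusted p 0.0302), lost its call without LLC1 replicate 1 or 2 or any SCC1 replicate (0.0573 to 0.105) and with the chromosome median removed (0.626). Without the filter 13 of 19 inflammasome genes tested were called in SCC2 against LLC1 (7 of 8 before). The genes so added had failed the filter on low values, and 7879 of all 15768 genes were called (7112 of 10519 before). With the filter of 5 FPKM 3 of 6 MHC class II genes tested were called (5 of 8 before), and 5774 genes in all. Replicate numbers are shared by the lines. Deviations of same-numbered libraries correlated at -0.0683 to 0.089, and those of libraries with different numbers at -0.07 to 0.0667. No shared effect of the number was seen, which cannot show that same-numbered libraries were prepared apart. With a replicate block the changes of the pair in SCC2 against LLC1 were again -3.33 and -3.42, and 7046 genes were called (7112 without it). The ratio per RefSeq transcript length was not run. In these libraries 3 fragments on a gene as long as the pair equal 0.11 to 0.157 FPKM, so lower levels are not told apart from 0.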
